A study of Mus musculus with 5 samples.

Results

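The comparison described here is the addition of TGF-β to medium with IL-4 and IL-1β. Th9 cells cultured with all 3 cytokines, IL-4+TGF-β+IL-1β, were set against Th9 cells cultured with IL-4+IL-1β. Its members are the transcript clusters (the units an expression array measures, usually 1 for each gene) that the array annotation gives 1 gene symbol, which holds for 23521 of 41345 clusters. They represent 22180 genes. The members were chosen by their annotation alone, and the comparison uses 2 of the 5 arrays.

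The T cells were naive CD4+ CD62L+ cells from the spleens of TRP-1 mice, a T cell receptor transgenic strain, B6.Cg-Rag1tm1Mom Tyrp1B-w Tg(Tcra,Tcrb)9Rest/J, 6 to 8 weeks old and of both sexes. The transgenic receptor recognizes tyrosinase-related protein-1, a melanocyte protein. *Rag1*, which lymphocytes need to rearrange their own receptor genes, is mutant in this strain. Both cultures ran for 3 days with TRP-1 peptide at 5 µg/ml on irradiated antigen-presenting cells, which were C57BL/6 spleen cells depleted of T cells. Both media held IL-4 and IL-1β, each at 10 ng/ml, and anti-IFN-γ antibody (10 µg/ml), and only 1 of them held TGF-β (1 ng/ml). The methods name no step that purified T cells again before RNA was extracted, so RNA of the other spleen cells may have been measured with that of the T cells. The other 3 arrays hold Th1 cells, Th2 cells and classic Th9 cells, the latter made with IL-4+TGF-β. Each condition has 1 array, so no difference below has a replicate check or a test. Levels are log2 values after RMA, an array summary that corrects background and brings the probe signals of all arrays to 1 distribution. The distribution of the summarized levels can still differ between arrays. A difference of 1 on this scale is 2-fold.

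TGF-β is secreted in a latent form and, once released, binds a type II receptor that recruits and activates a type I receptor. The receptors phosphorylate Smad2 and Smad3, which enter the nucleus with Smad4 and act with other factors on target genes, while Smad7, Ski and SnoN limit the signal. In CD4+ T cells TGF-β is known for inducing Foxp3, for the development of Th17 cells with IL-6 and of Th9 cells with IL-4, and for restraining Th1 and cytotoxic genes.

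With TGF-β, 24 named transcripts were at least 2-fold higher (0.102% of those measured) and 74 at least 2-fold lower (0.315%). Counted as genes, these were 23 (0.104%) and 65 (0.293%). *Cyp1a1*, *Aqp3*, *Galm* and *Antxr1* stood farthest up, and *Jchain* and immunoglobulin segments, *Csf2*, *Mzb1*, *Gzmd*, *Ms4a4c* and *Bhlhe41* farthest down. The median difference of the named transcripts was 0.01, with a 5th percentile of -0.40 and a 95th of 0.41. The split of the counts depended on the scaling: it was 37 higher and 62 lower with arrays centred on their 75th percentile. When the differences were centred on the T cell markers, which shifted every difference by -0.25, it was 8 higher and 215 lower. For the spread of dim signals, the 1108 olfactory receptor transcripts, whose genes are not known to act in T cells, had differences with an SD of 0.283, and 1 of them was 2-fold higher and 2 were 2-fold lower. At the 1.5-fold limit used for the lists below, 14 of these transcripts were higher and 30 lower, 3.97% in either direction. Their 95th percentile, 5.32 in IL-4+IL-1β cells and 5.38 in IL-4+TGF-β+IL-1β cells, is used below as the limit of dim signals. The lower of both arrays lay below this limit for 5 of the 24 higher transcripts and for 24 of the 74 lower ones.

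The cell type markers differed between the cultures and are given first. Of 8 T cell markers, none differed 1.5-fold, the median difference was 0.25, and 7 were above 0, among them *Cd4* (11.91 in IL-4+IL-1β cells and 12.25 with TGF-β) and *Cd3e* (12.43 and 12.59). Of 11 plasma cell markers, 6 were at least 1.5-fold lower and 0 higher, with a median of -0.65, and 2 lay above 0. Of 12 B cell markers, 3 were 1.5-fold lower, with a median of -0.30, and of 7 NK cell markers 1 was, with a median of -0.36. Over all genes, 1.21% were 1.5-fold higher and 1.79% 1.5-fold lower, with a median of 0.01. The summed linear signal of the T cell markers was 14.19 in IL-4+IL-1β cells and 14.41 with TGF-β on the log2 scale. That of the B cell markers was 14.22 and 13.92, that of the plasma cell markers 13.47 and 12.93, and that of the NK cell markers 12.03 and 11.55. Most B cell, plasma cell and NK cell markers thus lay lower, and most T cell markers higher, in the culture with TGF-β. With bulk RNA, fewer cells of a type and less RNA per cell cannot be told apart. The B cell genes *Cd79a* (12.19 and 11.93) and *Pax5* (9.07 and 8.81) were far above the limit of dim signals in both cultures, although the labels name only T helper cells. Of 17 myeloid markers, 1 was 1.5-fold higher and 2 were lower, with a median difference of -0.14, a median level of 5.87 and 5.67 and a summed signal of 10.71 and 10.54. *Cd68* of macrophages (9.39 and 8.91) was well above the limit of dim signals, while *Cd14* of monocytes (5.23 and 5.02) was below it in both cultures. Of 13 mast cell and basophil markers, 3 were lower and 0 higher, with a median difference of -0.42 and a summed signal of 10.02 and 9.51. Among them the protease gene *Cpa3* (8.93 and 8.18) was above that limit and the IgE receptor gene *Fcer1a* (4.71 and 4.57) below it. Of 12 dendritic cell markers, 1 was lower and 0 higher, with a median of -0.09 and a summed signal of 13.94 and 13.81. The part of these cell types in the differences was not tested.

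**Figure D1:**
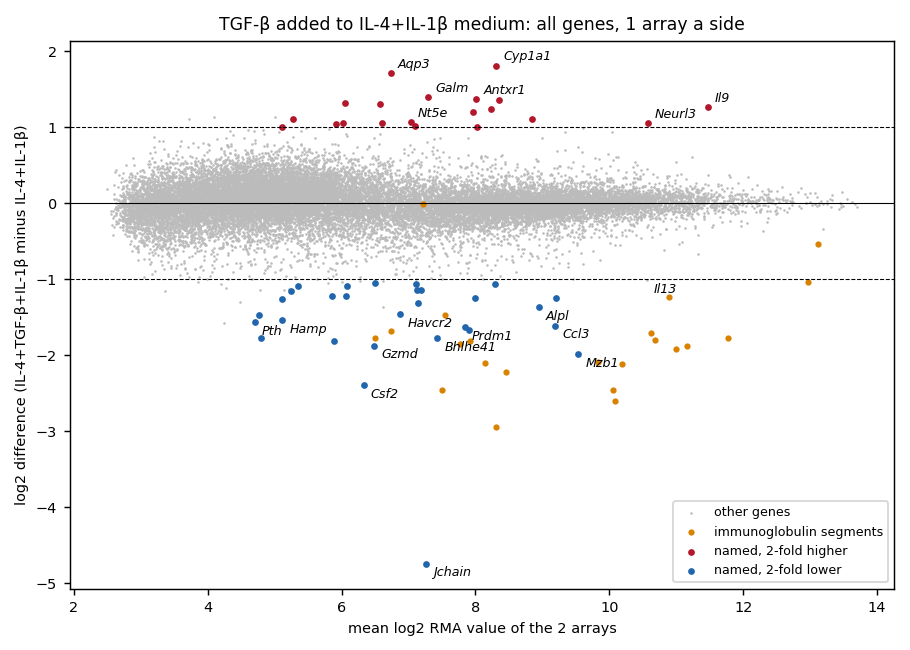
Log2 difference between IL-4+TGF-β+IL-1β and IL-4+IL-1β cells (vertical axis) against the mean log2 RMA value of both arrays (horizontal axis), 1 point a gene, 22180 genes. Orange points are immunoglobulin segments, red and blue points are named genes at least 2-fold higher or lower, and dashed lines mark 2-fold. *Jchain* lies lowest, at -4.74, and *Cyp1a1* highest, at 1.81.

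The ligands and the proteins that release them came first in the pathway lists. Of 17 genes for TGF-β ligands, activins and their activation, 1 was 1.5-fold lower and 0 higher, and the median was -0.01 (0.07 with 75th percentile centring). The lower one was *Inhba*, which encodes the subunit of activin A, another ligand of the family. Its level was 5.25 in Th1, 5.44 in Th2, 5.19 in classic Th9, 6.79 in IL-4+IL-1β and 5.77 in IL-4+TGF-β+IL-1β cells, a difference of -1.02. The IL-4+IL-1β array was thus the highest of the 5 and the array with TGF-β and IL-1β the second highest. *Tgfb1*, the ligand itself, was measured at 11.55 without TGF-β and 11.79 with it. *Lrrc32*, whose product GARP holds latent TGF-β on the surface of regulatory T cells, was at 9.46 and 8.97, and *Nrros*, a related anchor of myeloid cells and microglia, at 8.12 and 7.64.

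Of the 13 receptor genes, 1 was 1.5-fold higher and 0 lower, and the median was 0.21 (-0.04 when centred on the T cell markers). *Eng*, which encodes the co-receptor endoglin, was at 9.45 in Th1, 9.47 in Th2, 9.83 in classic Th9, 9.49 in IL-4+IL-1β and 10.09 in IL-4+TGF-β+IL-1β cells, 0.60 higher with TGF-β. The array with TGF-β and IL-1β was thus the highest, and the classic Th9 array was next. The type III receptor gene *Tgfbr3* (8.64 and 9.20) and the type I receptor gene *Tgfbr1* (7.52 and 8.01) were 0.56 and 0.49 higher, short of 1.5-fold. The type II receptor gene *Tgfbr2* went the other way, from 9.07 to 8.81.

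Among 16 Smads and their cofactors none differed 1.5-fold in either direction, and their differences lay between -0.31 and 0.28. *Smad2* was at 9.12 and 9.31, *Smad3* at 7.99 and 7.78, and *Smad4*, their common partner, at 9.88 and 9.84. Of the 16 feedback inhibitors, 1 was 1.5-fold higher and 0 lower, with a median of 0.10 (-0.15 when centred on the T cell markers). It was *Ldlrad4*, which encodes a membrane protein that withholds Smad2 and Smad3 from the receptor, at 7.04 and 7.69. *Bambi*, a decoy receptor, was at 6.28 and 6.80. *Smad7*, the inhibitory Smad that the signal itself induces in many cells, differed by -0.07 and *Skil*, which encodes SnoN, by 0.17.

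Of 20 genes known as TGF-β targets in many cell types none differed 1.5-fold, with differences from -0.47 for *Vegfa*, an angiogenic factor, to 0.41 for *Snai1*, a repressor of epithelial genes. Of 29 genes known as raised by TGF-β in T cells, 7 were 1.5-fold higher and 2 were 1.5-fold lower, with a median of 0.21 (-0.05 when centred on the T cell markers). The 7 were *Il9*, *Nt5e*, *Ctla4*, *Itgae*, *Ldlrad4*, *Maf* and *Sgk1*, and the 2 were *Entpd1* and *Rgs16*. Of 25 genes known as lowered by TGF-β in T cells, 9 were 1.5-fold lower and 0 higher, with a median of -0.35. The lists were written with earlier results of these arrays known, so the counts describe the members and are not independent evidence of a direction.

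*Il9*, the cytokine that defines Th9 cells, was at 4.49 in Th1, 7.53 in Th2, 8.77 in classic Th9, 10.84 in IL-4+IL-1β and 12.11 in IL-4+TGF-β+IL-1β cells. The array with all 3 cytokines was the highest and exceeded the IL-4+IL-1β array by 1.27. Classic Th9 cells exceeded Th2 cells by 1.24, so that the array with TGF-β was the higher one in both pairs. Of the 23 genes of the Th9 list, 2 were 1.5-fold higher and 1 lower, with a median of 0.02 (-0.23 when centred on the T cell markers). *Erg*, an ETS family transcription factor, was at 5.62 and 6.53, and *Etv5*, another ETS factor, at 7.47 and 6.84. The transcription factors of Th9 cells *Spi1* (PU.1), *Irf4* and *Batf* differed by -0.20, 0.10 and 0.13, and *Irf1*, an interferon regulatory factor, by -0.20.

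The promoters of a few leading genes, some higher and some lower with TGF-β, are printed here because Smad proteins recognize a short motif in DNA. The windows run from 250 bases before to 50 after the transcription start (RefSeq, GRCm38.p6). Capitals mark CAGAC or its reverse complement GTCTG, the Smad box, and GCGTG or its reverse complement CACGC, the core that the aryl hydrocarbon receptor AHR binds with its partner ARNT. The promoter of *Il9*, at chr13:56482208-56482507 on the minus strand, held the Smad box at positions -135 and 12 from the start.

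Il9: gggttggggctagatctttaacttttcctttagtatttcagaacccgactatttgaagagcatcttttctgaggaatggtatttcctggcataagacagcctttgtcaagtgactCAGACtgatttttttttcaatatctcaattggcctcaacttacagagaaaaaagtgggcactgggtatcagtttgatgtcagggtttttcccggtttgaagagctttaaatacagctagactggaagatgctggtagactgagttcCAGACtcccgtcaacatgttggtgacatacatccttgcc

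Both motifs are short and frequent. Of 32851 promoter windows of this length, 49.6% held CAGAC or GTCTG and 32.4% held GCGTG or CACGC. Of the genes listed as the highest with TGF-β, 24 had a window, and 17 (70.8%) held the Smad box and 10 (41.7%) the AHR core. Of the lowest, 23 had one, and 14 (60.9%) held the Smad box and 6 (26.1%) the AHR core. A gene with several windows was counted if any held the motif, whereas the shares over all windows count each window once. The shares of the genes and of the windows are therefore not in the same unit and cannot be compared directly. A match is a description of the sequence only.

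*Nt5e*, the ecto-5'-nucleotidase CD73 that makes adenosine from AMP outside the cell, was at 7.03 in Th1, 6.74 in Th2, 9.05 in classic Th9, 6.50 in IL-4+IL-1β and 7.57 in IL-4+TGF-β+IL-1β cells. Both arrays with TGF-β were above the other 3, and the array with IL-1β and TGF-β stood below the classic one. The difference was 1.07 with IL-1β and 2.31 without. *Entpd1*, CD39, which makes the AMP that CD73 uses, was lower with TGF-β, at 7.25 and 6.51. The other 10 measured genes of the adenosine list differed by less than 1.5-fold. The promoter of *Nt5e*, at chr9:88327359-88327658 on the plus strand, held the Smad box at -69 and -32 and the AHR core at -138.

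Nt5e: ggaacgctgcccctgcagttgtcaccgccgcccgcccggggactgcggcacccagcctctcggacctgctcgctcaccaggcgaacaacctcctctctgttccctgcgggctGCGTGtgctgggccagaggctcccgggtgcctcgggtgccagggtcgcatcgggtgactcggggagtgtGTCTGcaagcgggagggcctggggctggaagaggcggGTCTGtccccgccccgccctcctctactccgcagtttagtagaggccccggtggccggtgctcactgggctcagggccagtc

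The highest difference among the named genes was that of *Cyp1a1*, a cytochrome P450 that AHR induces. It was at 6.86 in Th1, 7.48 in Th2, 9.23 in classic Th9, 7.40 in IL-4+IL-1β and 9.21 in IL-4+TGF-β+IL-1β cells. The arrays with TGF-β were the 2 highest and nearly level, 1.81 above IL-4+IL-1β and 1.76 above Th2 cells. The list of AHR and its targets was added after the values were seen: of its 8 genes, 4 were 1.5-fold higher and 0 lower, with a median of 0.43. *Cyp2s1*, a related P450, was at 7.67 and 9.04, *Cyp1b1* at 6.72 and 7.39 and *Ahrr*, the AHR repressor, at 6.95 and 7.56. *Ahr* itself was at 8.63 and 8.88, and *Tiparp*, an early AHR target, at 9.09 and 9.20. The promoter of *Cyp1a1*, at chr9:57697363-57697662 on the plus strand, held the AHR core at -54 and the Smad box at -44.

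Cyp1a1: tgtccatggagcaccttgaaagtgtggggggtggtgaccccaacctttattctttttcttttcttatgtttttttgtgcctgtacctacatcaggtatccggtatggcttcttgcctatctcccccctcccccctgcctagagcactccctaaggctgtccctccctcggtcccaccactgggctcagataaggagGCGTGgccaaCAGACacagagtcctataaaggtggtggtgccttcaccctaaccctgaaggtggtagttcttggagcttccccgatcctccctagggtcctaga

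Transport, matrix and other surface genes held several of the highest members. *Aqp3*, a channel for water and glycerol, was at 6.89 in Th1, 6.39 in Th2, 8.74 in classic Th9, 5.88 in IL-4+IL-1β and 7.59 in IL-4+TGF-β+IL-1β cells. Both arrays with TGF-β were above the others, by a difference of 1.71 with IL-1β and 2.36 without. Of 33 genes for channels and solute transport, 3 were 1.5-fold higher and 0 lower, with a median of 0.11 (-0.14 when centred on the T cell markers). They were *Aqp3* and the magnesium transport genes *Trpm6* (4.97 and 5.96) and *Nipal1* (6.12 and 7.03). *Trpm6* lay below the limit of dim signals in IL-4+IL-1β cells. *Galm*, galactose mutarotase of sugar metabolism, was at 6.60 and 7.99, *Antxr1*, a receptor of collagen and of anthrax toxin, at 7.33 and 8.70, and *Rragd*, a GTPase that links amino acids to mTORC1, at 7.36 and 8.56. *Itih5*, a hyaluronan-binding matrix protein, was at 7.62 and 8.86, and *Timp2*, an inhibitor of matrix proteases, at 7.05 and 7.91. *Adam8*, a surface protease, was at 8.58 and 7.78, and *Plaur*, the urokinase receptor, at 7.42 and 6.67. The matrix list therefore held 2 higher and 2 lower members among 32, with a median of 0.05 (-0.20 when centred on the T cell markers).

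*Neurl3*, a ubiquitin ligase, was at 10.05 and 11.10, and *Car8*, a protein related to carbonic anhydrases, at 6.59 and 7.61. *Pdpn*, podoplanin, which Th17 cells also carry, was at 6.08 and 7.14, and *Chst2*, a sulfotransferase, at 7.52 and 8.52. *Apol9b*, an interferon-induced member of a family of close copies, was at 5.38 and 6.71, while its copy *Apol9a* was at 7.07 and 7.40. Probes may not separate the copies. *Efhd1*, a mitochondrial calcium-binding protein, and *Gpr25*, an orphan receptor, were 1.01 and 1.05 higher in the cluster with the higher mean, but a second cluster of each differed by -0.36 and -0.06. The differences of *Efhd1* and *Gpr25* therefore rest on 1 cluster each, and *Efhd1* (4.60) lay below the limit of dim signals in IL-4+IL-1β cells.

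**Figure D2:**
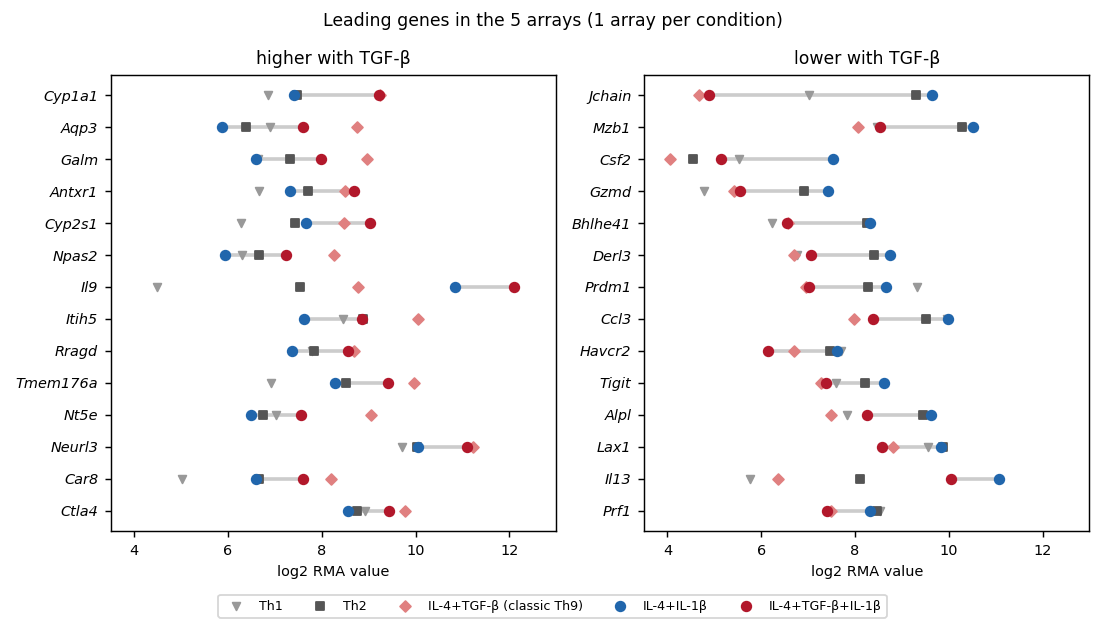
Log2 RMA values (horizontal axis) of 14 genes higher and 14 genes lower with TGF-β in each of the 5 arrays, 1 array per condition. Blue and red circles, joined by a grey line, are IL-4+IL-1β and IL-4+TGF-β+IL-1β cells. *Il9* is highest in the array with all 3 cytokines, at 12.11, whereas *Csf2* and *Il13* are highest in IL-4+IL-1β cells.

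The T helper programs were compared next. In the Th17 list 3 of 16 genes were 1.5-fold higher and 0 lower, with a median of 0.14 (-0.11 when centred on the T cell markers). They were *Tmem176a* (8.29 and 9.40), *Tmem176b* (9.12 and 10.10), neighbouring genes for membrane proteins, and *Maf* (7.83 and 8.46), a transcription factor that Th2 and Th17 cells share. The signature cytokines *Il17a* (4.59 and 4.56) and *Il22* (2.70 and 3.01) stayed below the limit of dim signals on both arrays. In the Treg list 3 of 18 were 1.5-fold higher and 1 lower, and the median was 0.20 (-0.05 when centred on the T cell markers). *Foxp3*, which encodes the lineage factor of regulatory T cells, was at 8.06 in Th1, 7.86 in Th2, 8.78 in classic Th9, 7.83 in IL-4+IL-1β and 8.39 in IL-4+TGF-β+IL-1β cells, 0.56 higher with TGF-β and short of 1.5-fold. The arrays with TGF-β were again the 2 highest. *Ctla4*, an inhibitory receptor of T cells, was at 8.92, 8.75, 9.77, 8.57 and 9.43 in the same order, with a difference of 0.86. *Itgae*, the integrin CD103 that binds E-cadherin on epithelium, was at 5.52, 6.88, 8.40, 6.60 and 7.27, with a difference of 0.67, less than the 1.52 between classic Th9 and Th2 cells.

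In the Th2 list 3 of 16 genes were 1.5-fold lower and 1 higher, with a median of -0.01 (0.06 with 75th percentile centring). *Il13*, a Th2 cytokine, was at 5.76 in Th1, 8.11 in Th2, 6.37 in classic Th9, 11.07 in IL-4+IL-1β and 10.06 in IL-4+TGF-β+IL-1β cells. Within each pair the array with TGF-β was the lower one, with differences of -1.01 with IL-1β and -1.74 without, and both arrays with IL-1β were above all others. *Il5*, which acts on eosinophils, was at 6.39 and 5.61, and *Il24* at 9.55 and 8.85. *Gata3*, the Th2 lineage factor, differed by -0.12. Of 13 mast cell and basophil markers, which cells also make *Il13*, 3 were 1.5-fold lower, with a median of -0.42 and a summed signal of 10.02 and 9.51. The median level of these markers was below the limit of dim signals in both cultures. Their part in the difference of *Il13* was not tested. In the Th1 list 1 of 15 was lower and 0 higher, with a median of -0.18, and it was *Il12rb2*, a subunit of the IL-12 receptor, at 9.14 and 8.48. The Th1 factors *Tbx21* (7.88 and 7.52) and *Eomes* (8.29 and 7.93) were within 1.5-fold, and *Ifng* differed by 0.06. In the Tfh list 2 of 15 were lower, with a median of -0.07 (0.01 with 75th percentile centring): *Cxcr5*, the receptor for the follicle chemokine CXCL13 (9.64 and 8.85), and *Pou2af1* (11.65 and 10.99). B cells express both, and *Pou2af1* is also on the B cell marker list, which was lower as given above. Its part here was not tested.

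*Csf2*, which encodes the myeloid growth factor GM-CSF, had the lowest difference among genes outside the immunoglobulin and plasma cell groups. It was at 5.53 in Th1, 4.54 in Th2, 4.05 in classic Th9, 7.53 in IL-4+IL-1β and 5.13 in IL-4+TGF-β+IL-1β cells. Only the IL-4+IL-1β array and, by a little, the Th1 array were above the limit of dim signals. The difference was -2.40 with IL-1β and -0.49 without. A second cluster of *Csf2* was at 4.91 and 4.87, below the limit in both cultures, so the difference rests on 1 cluster. Its promoter, at chr11:54249850-54250149 on the minus strand, held the Smad box once, at position 4 after the start.

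Csf2: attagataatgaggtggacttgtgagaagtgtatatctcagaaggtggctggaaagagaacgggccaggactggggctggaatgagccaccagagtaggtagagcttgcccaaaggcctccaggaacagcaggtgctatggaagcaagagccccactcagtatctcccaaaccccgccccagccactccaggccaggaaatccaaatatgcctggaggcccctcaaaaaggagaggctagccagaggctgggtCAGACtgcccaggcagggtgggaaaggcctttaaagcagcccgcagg

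Among 35 interleukins, 2 were 1.5-fold higher and 5 lower, with a median of -0.07 (0.01 with 75th percentile centring). The higher ones were *Il9* and *Il34*, a ligand of the CSF-1 receptor (5.10 and 5.79), and the lower ones *Il13*, *Il5* and *Il24* with *Il15* (5.35 and 4.52) and *Il3* (5.10 and 4.31). *Il15* and *Il3* were near or below the limit of dim signals on both arrays, and *Il34* lay below it in IL-4+IL-1β cells. Among 22 other cytokines and growth factors, 2 were 1.5-fold higher and 4 lower, and the median was -0.04 (0.04 with 75th percentile centring). The higher ones were *Fgf2*, a fibroblast growth factor (5.86 and 6.60), and *Ltb*, lymphotoxin β (9.82 and 10.43). The lower ones were *Csf2*, *Pth*, *Hamp* and *Tslp*. *Hamp*, the iron hormone hepcidin, was at 3.11 in Th1, 2.78 in Th2, 2.79 in classic Th9, 5.88 in IL-4+IL-1β and 4.34 in IL-4+TGF-β+IL-1β cells. The IL-4+IL-1β array was the only one above the limit of dim signals.

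Among cytotoxic genes the differences of 1.5-fold all lay on the lower side. Of 19 granule and death ligand genes, 5 were 1.5-fold lower and 0 higher, with a median of -0.24. *Gzmd*, a granzyme, was at 4.79 in Th1, 6.90 in Th2, 5.43 in classic Th9, 7.42 in IL-4+IL-1β and 5.55 in IL-4+TGF-β+IL-1β cells. The array with TGF-β was the lower one of each pair, with differences of -1.87 with IL-1β and -1.48 without. *Gzmf* (5.90 and 4.81), *Gzmg* (4.88 and 4.09) and *Gzmc* (8.26 and 7.48) are neighbouring granzymes of similar sequence, which probes may not fully separate. *Gzmg* lay below the limit of dim signals in both cultures, and *Gzmf* in the culture with TGF-β. *Prf1*, perforin, which opens the target cell membrane, was at 8.54, 8.47, 7.48, 8.33 and 7.41 in the order above. Both arrays with TGF-β were below the other 3. *Gzmb* (11.69 and 11.37) and *Gzma* (11.31 and 10.78), granzymes of T and NK cells, were short of 1.5-fold. Of 16 NK-type receptor genes 3 were lower and 0 higher, with a median of -0.40, and *Ncr1*, which encodes NKp46 of NK cells, was at 7.35 and 6.57. The NK cell markers were lower as given above, and their part in the cytotoxic genes was not tested.

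The inhibitory receptors were split, with 3 of 17 1.5-fold higher and 3 lower and a median of -0.10. *Nt5e*, *Ctla4* and *Cd96* (9.80 and 10.40) were the higher ones. *Havcr2*, TIM-3, a receptor of exhausted T cells and of myeloid and NK cells, was at 7.70 in Th1, 7.46 in Th2, 6.70 in classic Th9, 7.61 in IL-4+IL-1β and 6.15 in IL-4+TGF-β+IL-1β cells. *Tigit*, which competes with CD226 for its ligand, was at 7.60, 8.21, 7.27, 8.62 and 7.38 in that order. For both genes the 2 arrays with TGF-β were the lowest. *Entpd1* was the third lower one, and *Pdcd1* (7.99 and 7.89) and *Lag3* (8.13 and 8.03) differed by -0.10 each.

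Of 27 chemokines, 4 were 1.5-fold lower and 0 higher, with a median of -0.20. *Ccl3*, an inflammatory chemokine that draws leukocytes, was at 9.97 in Th1, 9.51 in Th2, 7.98 in classic Th9, 9.99 in IL-4+IL-1β and 8.38 in IL-4+TGF-β+IL-1β cells, so that the arrays with TGF-β were the 2 lowest. Its relatives *Ccl4* (6.51 and 5.77) and *Ccl5* (9.39 and 8.56) were lower as well, with *Ccl24*, an eosinophil chemokine (7.28 and 6.35). Among 23 chemokine and trafficking receptors 1 was lower, *Cxcr5*, and 0 were higher. *Ccr8* (9.56 and 10.14) and *Ccr4* (10.72 and 11.27), both of Th2 and regulatory T cells, were 0.58 and 0.54 higher.

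**Figure D3:**
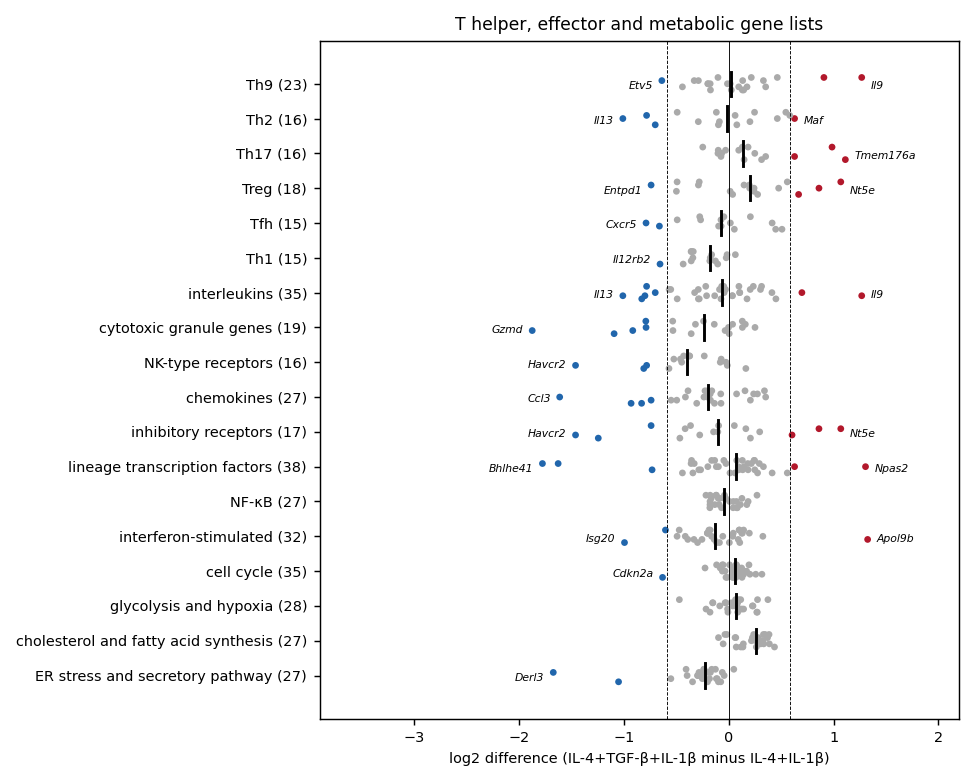
Log2 differences (IL-4+TGF-β+IL-1β minus IL-4+IL-1β cells, horizontal axis) for the members of 18 T helper, effector and metabolic lists, with the number measured in parentheses. Points are genes, red and blue at 1.5-fold or more higher or lower, black bars are medians and dashed lines mark 1.5-fold. NF-κB genes lie within 1.5-fold throughout, and NK-type receptors have the lowest median, -0.40.

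Among 38 lineage transcription factors 2 were 1.5-fold higher and 3 lower, with a median of 0.07 (-0.18 when centred on the T cell markers). *Npas2*, a paralog of the clock gene *Clock*, was at 6.30 in Th1, 6.66 in Th2, 8.27 in classic Th9, 5.93 in IL-4+IL-1β and 7.23 in IL-4+TGF-β+IL-1β cells, highest in both arrays with TGF-β. *Bhlhe41*, a repressor that also acts in the clock, was at 6.22, 8.26, 6.56, 8.32 and 6.54 in that order, lower in both arrays with TGF-β than in their partners. The other 15 measured genes of the circadian list were within 1.5-fold. *Zbtb32*, a repressor of activated lymphocytes, was at 8.82 and 8.09.

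*Prdm1* encodes Blimp-1, a repressor that plasma cells need and that effector T cells also express. It was at 9.33 in Th1, 8.28 in Th2, 6.95 in classic Th9, 8.65 in IL-4+IL-1β and 7.03 in IL-4+TGF-β+IL-1β cells, with differences of -1.63 and -1.33. The arrays with TGF-β were the 2 lowest. *Prdm1* is itself a plasma cell marker, and most of the other markers were lower. Their part in its difference was not tested. Its promoter, at chr10:44458699-44458998 on the minus strand, held the Smad box at -43, -19 and 43 and the AHR core at -109 and -77.

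Prdm1: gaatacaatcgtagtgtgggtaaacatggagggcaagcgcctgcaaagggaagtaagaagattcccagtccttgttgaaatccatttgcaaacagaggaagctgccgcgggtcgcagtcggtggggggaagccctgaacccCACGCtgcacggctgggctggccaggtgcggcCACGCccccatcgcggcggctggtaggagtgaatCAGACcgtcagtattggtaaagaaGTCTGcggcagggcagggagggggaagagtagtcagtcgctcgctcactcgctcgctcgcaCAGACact

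The immunoglobulin and plasma cell genes made up the largest group of lower transcripts. Of the 74, 27 were immunoglobulin transcripts, and 30 of 32 measured immunoglobulin transcripts were 1.5-fold lower, with a median of -1.77. Several of them belong to the same gene, such as *Ighm*. Segments share much of their sequence, so these transcripts are not independent measurements. *Jchain*, which joins IgM and IgA into polymers, was at 7.03 in Th1, 9.30 in Th2, 4.68 in classic Th9, 9.63 in IL-4+IL-1β and 4.89 in IL-4+TGF-β+IL-1β cells. It was, in both arrays with TGF-β, below the limit of dim signals, with differences of -4.74 with IL-1β and -4.62 without. *Mzb1*, a chaperone of IgM assembly, was at 10.52 and 8.54, *Derl3*, of the degradation of misfolded proteins, at 8.74 and 7.07, and *Fkbp11*, a prolyl isomerase of the secretory pathway, at 7.03 and 5.98. Among 27 genes of the secretory pathway and the unfolded protein response, 2 were 1.5-fold lower, *Derl3* and *Fkbp11*, and 0 higher, with a median of -0.23. *Xbp1*, a transcription factor of that response, was at 10.97 and 10.56. Without the immunoglobulin, B cell and plasma cell genes, 42 transcripts were 2-fold lower in place of 74, and the number of higher ones was 24 as before.

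Other lower genes included *Ms4a4c* (6.80 and 4.99), *Alpl*, tissue-nonspecific alkaline phosphatase (9.63 and 8.27, while a second cluster was at 6.36 and 6.20), *Lax1*, an adaptor that restrains lymphocyte signaling (9.83 and 8.58), *Slc7a7*, an amino acid transporter (7.80 and 6.48), and *Cd36*, a scavenger and fatty acid receptor (6.69 and 5.46). *Isg20*, an exonuclease, and *Gbp7*, a guanylate-binding protein, with differences of -0.99 and -0.60, were the 2 lower genes of 32 interferon-stimulated ones, of which 1, *Apol9b*, was higher. The median of that list was -0.13.

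The lists of general T cell functions stayed within narrow ranges. None of 27 NF-κB genes differed 1.5-fold, and they lay between -0.22 for *Nfkbib* and 0.27 for *Malt1*. None of 22 SOCS and STAT genes did. Of 35 cell cycle genes, 1 was lower, *Cdkn2a*, the inhibitor p16 and p19 (6.91 and 6.28), and *Mki67*, of dividing cells, was at 11.75 and 11.69. None of 28 genes of glycolysis and hypoxia and none of 19 genes of Myc and ribosome biogenesis reached 1.5-fold. Of 27 genes for cholesterol and fatty acid synthesis none reached it either, but 23 were above 0, with a median of 0.26. *Hmgcs1*, an early enzyme of the cholesterol pathway, was at 10.47 and 10.85, and *Fads2*, a fatty acid desaturase, at 9.90 and 10.34. The median of that list was -0.14 in the comparison without IL-1β and 0.00 here when centred on the T cell markers.

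Array probes for microRNAs measured the hairpin region, not the mature strand. The hairpins were examined after their values were seen. *Mir181d* was at 8.47 in Th1, 8.09 in Th2, 8.30 in classic Th9, 7.46 in IL-4+IL-1β and 8.31 in IL-4+TGF-β+IL-1β cells, so that the IL-4+IL-1β array was the lowest. Its neighbour *Mir181c* was at 6.97 and 7.27. *Mir19a*, of the same microRNA cluster as *Mir17*, was at 5.71 and 4.56, and the other members measured, *Mir17* (6.02 and 5.72), *Mir18* (7.69 and 7.23) and *Mir20a* (5.31 and 4.73), were within 1.5-fold. The mature strands of the 3 hairpins discussed are shown with the seed, bases 2 to 8, in capitals, and miR-181c and miR-181d share it (RefSeq, GRCm38.p6).

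mmu-miR-181d-5p: aACAUUCAuuguugucggugggu
mmu-miR-181c-5p: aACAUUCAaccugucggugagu
mmu-miR-19a-3p: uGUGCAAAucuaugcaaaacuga

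TGF-β was also added in the absence of IL-1β, which sets classic Th9 cells beside Th2 cells. These 2 arrays are not those used above, but the Th2 medium also held IL-2, so the media differ in more than TGF-β. There, 1.28% of genes were 1.5-fold higher and 1.77% lower. Of the 24 transcripts 2-fold higher with IL-1β, 16 were also at least 1.5-fold higher without it and 1 was 1.5-fold lower. Of the 74 lower, 56 were at least 1.5-fold lower without it and 1 was 1.5-fold higher. Over all genes, 49 were 1.5-fold higher in both comparisons and 142 lower in both. Across the 22180 genes the correlation of both differences was 0.326 (Pearson) and 0.185 (Spearman). Genes are not independent replicates, and these genes share 4 arrays normalized together. Over the 13022 genes above the median level, the Pearson correlation was 0.547. Without immunoglobulin, B cell and plasma cell genes among them it was 0.473, over 12978 genes.

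Single genes are set side by side in both comparisons, with no test of the difference between them. The differences of *Cyp1a1*, *Il9*, *Itih5* (1.25 and 1.17), *Ccl3* (-1.61 and -1.53), *Bhlhe41* (-1.78 and -1.70) and *Derl3* (-1.67 and -1.72) were close to each other in both. *Nt5e*, *Aqp3*, *Itgae* and *Nipal1* (0.91 and 1.87) had the larger difference without IL-1β. *Csf2*, *Hamp* (-1.54 and 0.01), *Ms4a4c* (-1.81 and -0.54) and *Inhba* (-1.02 and -0.25) had the larger difference with IL-1β. Of these, *Csf2*, *Hamp* and *Inhba* were highest in the IL-4+IL-1β array among all 5. In Th2 and classic Th9 cells, *Csf2* (4.54 and 4.05) and *Hamp* (2.78 and 2.79) lay below the limit of dim signals and *Inhba* (5.44 and 5.19) lay near it. The differences of these genes without IL-1β are thus between signals near or below that limit, where a fall may be hard to see.

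**Figure D4:**
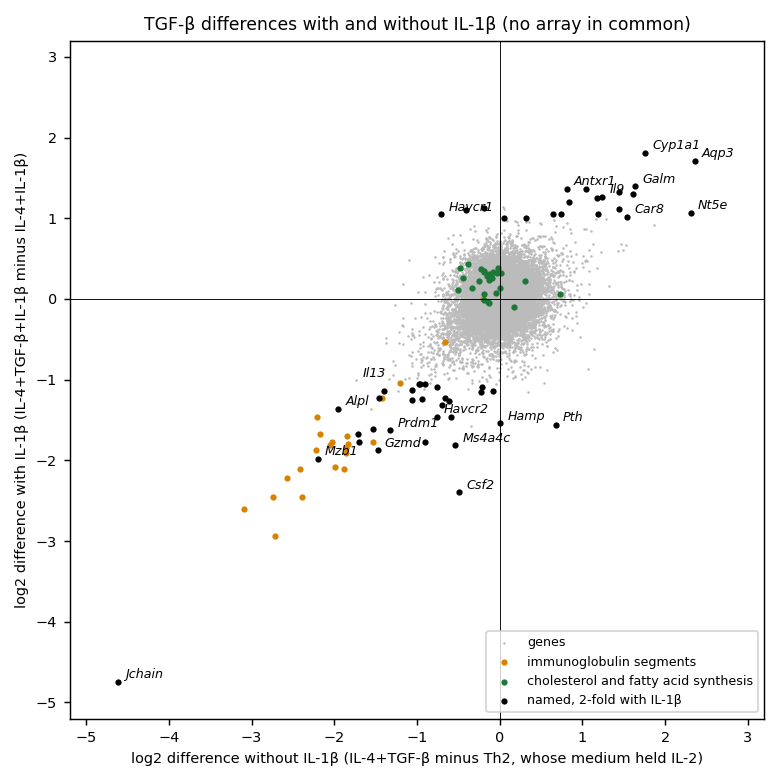
Log2 difference with TGF-β in the presence of IL-1β (vertical axis) against that in its absence (classic Th9 minus Th2 cells, horizontal axis), 1 point a gene, 22180 genes. Orange points are immunoglobulin segments, green points cholesterol and fatty acid genes and black points named genes at least 2-fold apart with IL-1β. *Csf2* lies at -2.40 with IL-1β and -0.49 without, while *Havcr1* and *Pth* have opposite signs.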

How the data were processed

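Affymetrix Mouse Gene 2.0 ST arrays were used for RNA of 5 cultures, with 1 sample each. The authors ran RMA with the Expression Console software of Affymetrix and deposited log2 values, 1 per transcript cluster and array. Program versions and genome build: not given in the sources used here. Per the labels, conditions were assigned from the sample titles. No value was missing. The number of arrays limits the precision, and with 1 array per condition no test was possible, so differences of log2 values and counts past a fixed fold are given. Neither depth nor counts of reads exist for arrays.

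Clusters were named from the platform annotation where it gives 1 gene symbol. Of 23521 such clusters, 23328 have an Entrez ID in the RefSeq table; 1820 clusters carry several symbols and were left out. Where a gene had several clusters, its brightest one, by the mean of all 5 arrays, was taken. Single transcripts were counted at 2-fold, list members at 1.5-fold. The 42 program lists and the 10 marker lists, with the genes in them, were chosen with earlier results of these data known. A further 2 lists (AHR targets and microRNA hairpins) were added after the values were seen. Genes named are members of the TGF-β pathway lists, the list members with the largest differences, the 30 highest and 30 lowest genes without gene models, antigen receptor segments and olfactory receptors and with the higher array above the median of all values, genes the study names for the arrays, and genes with opposite differences with and without IL-1β. A few members of other lists were named for their known role after their values were seen. Promoter and microRNA sequences are those of RefSeq (GRCm38.p6). Alternatives were centring on the median, the 75th percentile or the T cell markers, quantile normalization, log2(value + 16), filters on low values, other folds and the mean over clusters. The counting was tested on simulated data. Python 3.11.15 with numpy 2.4.6, pandas 2.3.3 and matplotlib 3.10.9 was used.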

Additional observations from a re-analysis of the deposited data

Results flagged for a closer look

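Some results had opposite signs in the comparison with IL-1β and in that without it (classic Th9 against Th2 cells, whose medium also held IL-2). None of these contrasts was tested, as each condition has 1 array. *Havcr1*, which encodes TIM-1, was 1.05 higher with TGF-β in the presence of IL-1β and differed by -0.71 without it. *Nat8f3* differed by 0.75 and -0.63. *Pth*, parathyroid hormone, differed by -1.56 with IL-1β and 0.68 without. *Gal3st2b* differed by -0.64 and 0.69, and the microRNA hairpin *Mir669m-1* by -0.87 and 1.06. For each of *Pth*, *Gal3st2b* and *Mir669m-1*, 3 of the 4 values lay below the limit of dim signals. Among gene lists, the median of the inhibitory receptors was -0.10 with IL-1β and 0.17 without, and that of cholesterol and fatty acid synthesis 0.26 and -0.14.

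A signal also appeared in transcripts that the comparison left out. Of 17824 transcript clusters with no symbol or several symbols, 712 were 2-fold lower with TGF-β and 115 were 2-fold higher. Of these clusters, 5333 have an identifier below that of the first named cluster, and 477 of them were 2-fold lower and 80 higher. What these clusters measure is not known from the tables used here.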

How the results depend on the processing

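With 1 array per condition no replicate could be left out, and no paired analysis was possible because the arrays carry no replicate numbers. Against 24 transcripts 2-fold higher and 74 lower, centring on the 75th percentile gave 37 higher, log2(value + 16) gave 13 and 47, a 1.5-fold limit 306 and 426, a 3-fold limit 2 and 30, and the whole table, unnamed transcripts included, gave 139 and 786. Without immunoglobulin, B cell and plasma cell genes 42 were lower. Centring on the T cell markers, added after the data were seen, gave 8 and 215, and the other settings stayed within 1.5 times. Of 52 list medians, 33 changed sign in some setting, and each moved by less than the SD of the olfactory receptor transcripts. Centring on the T cell markers shifts every median by -0.25, which is below that SD of 0.283 by construction. As the SD of single dim transcripts, it does not measure the spread of a list median. Of 71 single genes, 16 moved by more than that SD with log2(value + 16), and 4 with the mean over clusters, among them *Csf2* (-1.22) and *Gpr25* (0.50), and 1, *Il21*, with a difference of -0.07, changed sign. The array with TGF-β lay below the limit of dim signals for *Jchain*, *Csf2*, *Klra14-ps*, *Pth*, *Hamp*, *Ifi205* and *Mir19a*, among others, which restricts the size of their differences. Among the higher genes, the IL-4+IL-1β array lay below it for *Trpm6* and *Efhd1*, among others.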

Other observations

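Of 31 measured genes of the TNF and TNF receptor superfamilies, 3 were 1.5-fold higher with TGF-β and 1 was lower, with a median of 0.07 (-0.19 when centred on the T cell markers). *Tnfrsf25*, the death receptor DR3 of T cells, was at 7.15 and 7.76, *Tnfsf13b*, the B cell survival factor BAFF, at 7.44 and 8.04, and *Ltb* at 9.82 and 10.43. *Tnfrsf13b*, TACI, a receptor of BAFF on B cells, was at 9.04 and 8.39. Among 28 integrins and adhesion genes 1 was higher, *Itgae*, and 2 were lower, *Alcam*, a ligand of CD6 (9.06 and 8.15), and *Itgam* (6.89 and 6.27).

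Of 29 targets of the stress factor ATF4 and amino acid transporters, 1 was 1.5-fold lower, the cystine transporter gene *Slc7a11* (6.20 and 5.52), and 0 were higher. Of 17 myeloid markers, *Lyz2*, lysozyme, was higher by a difference of 0.75, while *Ly6g* of neutrophils (5.17 and 4.17) and *Itgam* were lower. *Ly6g* lay below the limit of dim signals in both cultures.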
